A study of Mus musculus with 6 samples.

Results

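The S100 alarmin and stefin A genes are 9 of the 37991 genes in the count table of bone endothelial cells (BECs) from 12-week-old mice: S100a8, S100a9, S100a11, S100a6, S100a4, Stfa1, Stfa2, Stfa2l1 and Stfa3. They were taken from the table by name, and the names were chosen because earlier results from these same libraries had shown them higher in males, so that their difference between the sexes is given as a description and no test of it is used as support. The table holds 3 female and 3 male libraries from freshly isolated tibia of c57/Bl6 mice, with no treatment or transgene named for either group, and the study compared the sexes to learn how BECs differ between females and males. Cells were purified by endomucin, a surface protein of bone sinusoids and capillaries that some haematopoietic cells also carry, and the study took the best samples of each set by RNA quality. The labels do not say whether each library came from 1 mouse, so error bars and p-values measure the spread between these libraries.

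S100 proteins are small calcium-binding proteins that work as dimers. S100a8 and S100a9 pair as calprotectin, which fills the cytosol of neutrophils, binds zinc and manganese, and acts outside the cell as an alarmin through Tlr4 and other receptors. Stefin A proteins are cytosolic inhibitors of cysteine cathepsins, the lysosomal proteases, and rodents carry a cluster of stefin A genes that are expressed in granulocytes. S100a8, S100a9 and the stefin A genes are best known from maturing neutrophils, whereas S100a4, S100a6 and S100a11 are used by many cell types, endothelial cells among them.

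On GRCm39, S100a4 (90511074 to 90513354), S100a6 (90520140 to 90535843), S100a8 (90567118 to 90578128) and S100a9 (90599931 to 90603071) lie close together on chromosome 3, with other genes of the family among them, and S100a11 lies further along it, from 93414382 to 93435293. S100a9 is on the minus strand and the other S100 members are on the plus strand. The stefin A members lie on chromosome 16, Stfa2l1 from 35977176 to 35982332 and Stfa1 from 36093823 to 36105817 on the plus strand, Stfa2 from 36224305 to 36241288 and Stfa3 from 36270893 to 36275884 on the minus strand. This interval holds 31 annotated genes, of which 12 were in the count table.

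The stretches just before the transcription starts show how closely the stefin A members are related. They are given below from RefSeq on GRCm38.p6, 5′ to 3′ on the strand of the gene, as the 150 bases before each start, and the capitals mark the longest runs that the 4 windows share, 2 runs of 13 bases each. They are chr16:36276998-36277147 on the plus strand for Stfa1, chr16:36408364-36408513 on the minus strand for Stfa2, chr16:36156661-36156810 on the plus strand for Stfa2l1 and chr16:36455393-36455542 on the minus strand for Stfa3.
Stfa1: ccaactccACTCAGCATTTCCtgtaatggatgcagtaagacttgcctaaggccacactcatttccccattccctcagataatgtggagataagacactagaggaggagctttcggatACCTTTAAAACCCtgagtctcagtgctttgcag
Stfa2: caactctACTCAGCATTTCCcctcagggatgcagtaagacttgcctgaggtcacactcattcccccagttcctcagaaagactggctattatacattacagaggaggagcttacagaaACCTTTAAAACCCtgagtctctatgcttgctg
Stfa2l1: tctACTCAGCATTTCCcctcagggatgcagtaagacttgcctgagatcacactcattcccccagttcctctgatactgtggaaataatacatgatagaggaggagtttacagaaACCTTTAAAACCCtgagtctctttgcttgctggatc
Stfa3: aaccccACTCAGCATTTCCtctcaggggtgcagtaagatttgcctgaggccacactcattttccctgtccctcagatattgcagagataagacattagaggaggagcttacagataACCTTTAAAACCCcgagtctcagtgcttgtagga

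The shared run farther from the start, ACTCAGCATTTCC, begins at -142 in Stfa1, -143 in Stfa2, -147 in Stfa2l1 and -144 in Stfa3, counting back from -1 at the last base before the start. On either strand it was present in 10 of the 32851 promoter windows of the RefSeq table (0.0304%), each of 300 bases, and besides the 4 members these were Csta1, Csta3, Cstdc3, Cstdc5, Gm40403 and Gm7260. The run nearer to the start, ACCTTTAAAACCC, begins at -33 in Stfa1, -32 in Stfa2, -36 in Stfa2l1 and -34 in Stfa3. It was present in 9 windows (0.0274%), those of the members and of Csta3, Cstdc3, Cstdc4, Cstdc5 and Gm7260. Over the 250 bases before the start, the stefin A members were 81.8% to 92.3% identical to each other, and the closest pair was Stfa2 and Stfa2l1. Between S100 members the same windows aligned over only 133 to 228 bases, with 51.9% to 62.4% of the aligned bases identical.

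The 150 bases before S100a8, chr3:90668921-90669070 on the plus strand of GRCm38.p6, are shown since S100a8 is one of the most abundant members. The capitals mark 2 adjoining matches, the reverse complement of GAGGAA at -36 and TATAAA at -30.
S100a8: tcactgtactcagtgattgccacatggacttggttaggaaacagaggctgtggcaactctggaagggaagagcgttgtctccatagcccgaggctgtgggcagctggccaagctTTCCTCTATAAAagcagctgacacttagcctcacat

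Letters that the myeloid factors C/EBP (TTGCNNAA) and PU.1 (GAGGAA) bind, and those of a TATA box (TATAAA), were searched on both strands of the 300-base windows, which run from 250 bases before the start to 50 after it. GAGGAA was found in 7 of the 9 members and in 28.3% of all windows, TTGCNNAA in 2 members, S100a9 and Stfa1, and in 10.8% of all windows, and TATAAA in 3 members, S100a8, S100a9 and S100a4, and in 13.6%. TATAAA began at -30 in S100a8 and at -31 in S100a4, but at 1 in S100a9, the annotated start itself. The GAGGAA match of S100a4 began at 20, after the start. The S100a6 window held none of these letters. A match describes letters only and is no evidence that a factor binds there.

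The coding sequences repeated this grouping. Stfa2 and Stfa2l1 were 96.5% identical over 312 aligned bases, Stfa1 was 98% identical to its neighbour Cstdc5 over 294 bases and 93.8% identical to Cstdc6 over 291, and the other pairs of stefin A members were 76.9% to 84% identical. The S100 members were 52.1% to 65.6% identical, with S100a6 and S100a4 the closest pair. Such likeness bears on counting, since a read that matches several genes may be dropped or placed on the wrong copy. The sources differ on the length of the reads, 100 bases in the study's methods and 40 in the labels, and the uncertainty depends on it. Of the stretches of 40 bases in the annotated transcripts of each gene, 22% in Stfa1, 20.9% in Stfa2 and 23.6% in Stfa2l1 also occurred in another gene, mainly Cstdc5 and Cstdc6 for Stfa1 and each other for Stfa2 and Stfa2l1. At 100 bases the shares were 2.16%, 0.927% and 0%. S100a8, S100a9, S100a6 and Stfa3 shared no stretch of either length, S100a11 shared 10.9% of its 40-base stretches, mainly with pseudogenes, and S100a4 shared 25.6%, all with the overlapping gene Gm42674 on the same strand. Counts of Stfa1, Stfa2, Stfa2l1 and S100a4 are thus less certain as to the gene they belong to than those of S100a8, S100a9, S100a6 and Stfa3.

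**Figure D1:**
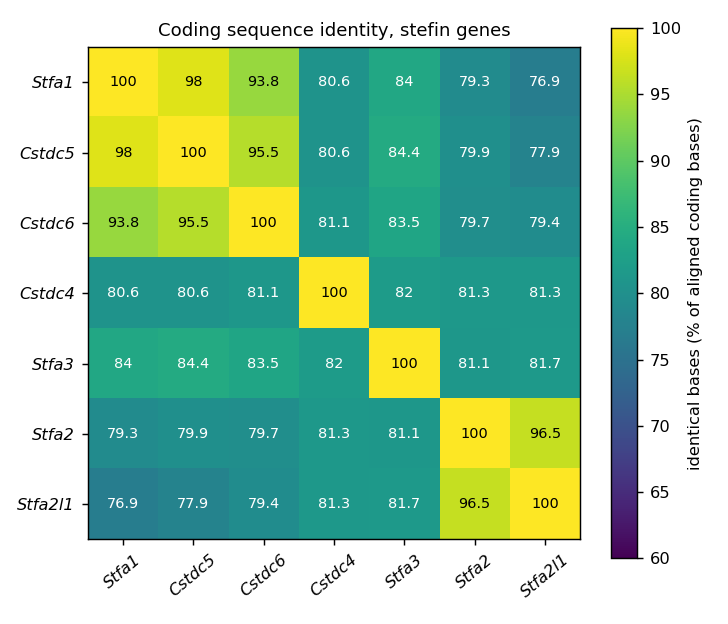
Identity of the coding sequences of the 4 stefin A members and 3 neighbouring stefin genes, in percent of the aligned bases, with each gene on both axes. Stfa1 with Cstdc5 and Cstdc6, and Stfa2 with Stfa2l1, form the 2 blocks above 90%.

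Female libraries held 47678806 to 58325745 counts and male libraries 49236654 to 50406097. Levels are given as CPM, counts scaled to a common library size after TMM normalization, and the floor of a library, set at 3 counts, was 0.0477 to 0.0639 CPM. No libraries agreed within sampling noise, and Xist, the X-inactivation transcript of females, had 152.5 CPM or more in the female libraries and 0.702 or less in the male ones. On the second principal component of the 500 most variable genes, male replicate 3 lay at 17.2 and the other libraries between -5.73 and -1.69, and member values without it are given below. The labelled cell type was checked with its defining markers, none of which was at 0: Pecam1 had 92.2 CPM in females and 78.6 in males, Cdh5 had 26.5 and 11.8, and Emcn, the gene of the protein used for purification, had 8.19 and 4.68. The neutrophil markers Ltf, Camp and Ly6g were at hand in every library as well, with 1472, 1433 and 39.1 CPM or more. Other blood lineages were present too. Mean summed levels in females and males were 584 and 356 CPM over 20 endothelial markers and 15070 and 21680 over 10 erythroid markers. They were 4867 and 3584 over 8 macrophage markers and 3145 and 3149 over 8 B cell markers. The libraries thus hold RNA of neutrophils and other blood cells beside endothelial RNA, and such sums give no cell fractions. In such bulk libraries a change in the number of cells of a type and a change in RNA per cell cannot be told apart.

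All 9 members were higher in males, by 1.52-fold in S100a11 to 2.57-fold in Stfa1, and for each of them every male library lay above every female library. The median log2 fold change, males over females, was 1.01 over the 9 members, 0.97 over the 5 S100 genes and 1.08 over the 4 stefin A genes, beside 0.00 over all 19480 genes tested. Without male replicate 3 the medians were 0.97, 0.95 and 0.99. Together the members held 1.29% ± 0.0371 of a female library (SD, n = 3) and 2.57% ± 0.501 of a male library (SD, n = 3).

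S100a9 and S100a8, the subunits of calprotectin, carried nearly all of this. S100a9 ranked between 2 and 8 by counts among the genes of a library and S100a8 between 5 and 14. S100a9 had 6921, 8231 and 7480 CPM in female replicates 1, 2 and 3 and 11760, 17510 and 15180 CPM in male replicates 1, 2 and 3. The males were above the females throughout, with the lowest male at 1.43 times the highest female, and the log2 fold change was 0.97 (SE 0.20). S100a8 had 4334, 5224 and 5139 CPM in the females and 7598, 12520 and 10620 CPM in the males. Its groups were likewise apart, at 4899 ± 491 against 10250 ± 2484 CPM (SD, n = 3 each), a log2 fold change of 1.06 (SE 0.21), and the males varied more among themselves, with a coefficient of variation of 24.2%. In both genes male replicate 1 was the lowest male and male replicate 2 the highest.

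The subunits stood in a like ratio in both sexes. The ratio of S100a9 to S100a8 counts was 1.60, 1.58 and 1.46 in the females and 1.55, 1.40 and 1.43 in the males, so that the sexes overlapped in it. The pair held 1.21%, 1.28% and 1.24% of the counts of the female libraries. In the males it held 2.03%, 3.00% and 2.43%. The exact binomial 95% interval was 1.21% to 1.22% in female replicate 1 and 3.00% to 3.01% in male replicate 2, which covers counting error only, as amplified copies of a molecule were counted too.

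The other S100 members were far less abundant per length and were not higher by equal amounts. S100a6, also called calcyclin, had 158, 206 and 180 CPM in the females and 295, 419 and 381 CPM in the males, with a log2 fold change of 1.01 (SE 0.16). S100a11, a partner of annexin A1, had 217, 263 and 252 CPM in the females and 337, 414 and 362 CPM in the males, a log2 fold change of 0.60 (SE 0.14). These groups were clear of each other in both genes. S100a4, which binds non-muscle myosin heavy chain, had 27.4, 37.7 and 29.4 CPM in the females and 38.9, 51.8 and 55.8 CPM in the males. Female replicate 2 came close to male replicate 1 here, the lowest male being 1.03 times the highest female, and the log2 fold change was 0.63 (SE 0.17). Within libraries, the ratio of S100a6 to S100a4 counts was 5.80 ± 0.328 in females and 7.50 ± 0.641 in males, and that of S100a11 to S100a6 was 1.35 ± 0.0670 and 1.03 ± 0.102 (SD, n = 3 each). The sexes were apart in both ratios, S100a6 being the more abundant in males relative to either of the others.

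The stefin A members were low but well above the floor, with 66 to 1701 counts in a library. Stfa2l1 was the most abundant, with 13.4, 17.1 and 15.6 CPM in the females and 25.6, 34.5 and 33.7 CPM in the males, a log2 fold change of 1.02 (SE 0.16). Stfa2, its near copy, had 3.69, 4.28 and 5.79 CPM in the females and 8.60, 8.77 and 9.04 CPM in the males, where the libraries differed by a coefficient of variation of only 2.55%. Its log2 fold change was 0.94 (SE 0.22), and the ratio of Stfa2l1 to Stfa2 counts overlapped between the sexes, at 3.44 ± 0.681 in females and 3.55 ± 0.503 in males (SD, n = 3 each).

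Stfa1 had 2.31, 3.56 and 3.88 CPM in the females and 5.85, 7.21 and 11.9 CPM in the males. It was the member with the highest log2 fold change, 1.36 (SE 0.31), and much of this came from male replicate 3, without which the value was 1.01. Stfa2 did not share that high value, so that the ratio of Stfa2 to Stfa1 counts was 0.758 in male replicate 3 and between 1.20 and 1.60 in the other 5 libraries. Stfa3, the only stefin A member that shares no transcript stretch with another gene, had 1.26, 1.25 and 1.77 CPM in the females and 2.77, 3.23 and 3.42 CPM in the males, a log2 fold change of 1.14 (SE 0.29). Its lowest male was 1.57 times its highest female. S100a8 and Stfa2l1, the only pair from different families that was compared, had a count ratio of 305 to 330 in females and 297 to 363 in males. All members were chosen as higher in males, so like ratios between them, here and above, follow in part from that choice.

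**Figure D2:**
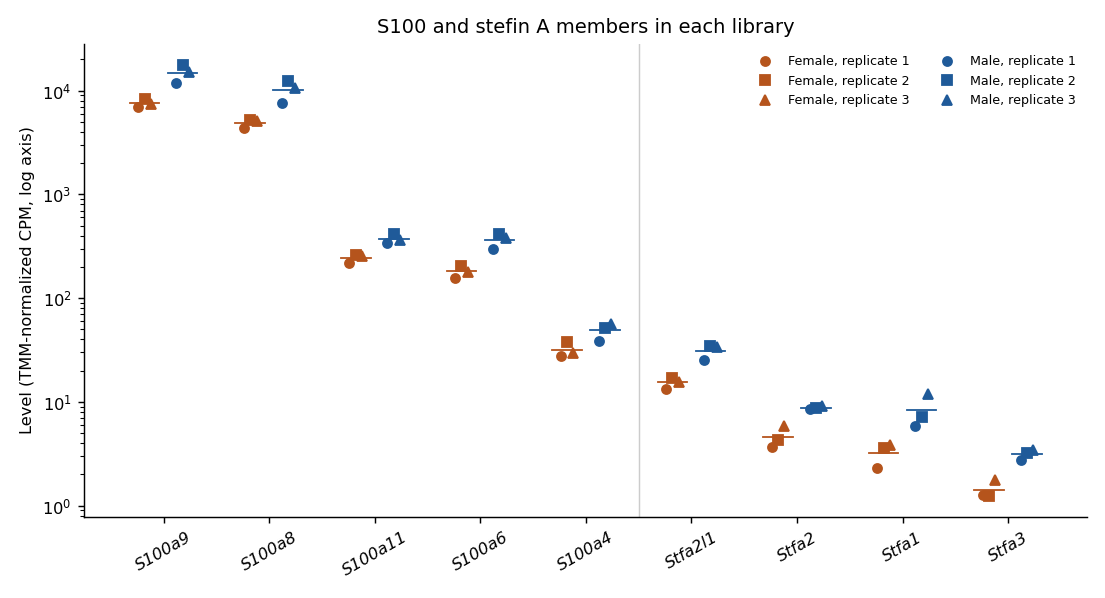
Level of each member in each of the 6 libraries, as TMM-normalized CPM on a log axis, with females in orange, males in blue, a symbol for each replicate number and a line at the mean of each sex. The male points lie above the female points for each gene, and the levels span from 1.25 CPM in Stfa3 to 17510 in S100a9.

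Levels of different genes were compared per kilobase of annotated exon. S100a9 had 5912 ± 515 CPM per kilobase in females and 11610 ± 2266 in males, followed by S100a8 with 4974 ± 499 and 10400 ± 2522 (SD, n = 3 each), and the ranges of these 2 genes overlapped in males but not in females. S100a11 had 91.3 ± 8.92 and 139 ± 14.7 and S100a6 had 77.2 ± 10.3 and 155 ± 27.1, which overlapped in both sexes and changed order between them. S100a4, with 34.7 ± 5.98 and 53.8 ± 9.72, was above Stfa2l1, with 23.1 ± 2.80 and 46.9 ± 7.38, although their ranges overlapped in males. Stfa2 (4.53 ± 1.07 and 8.70 ± 0.222), Stfa1 (2.90 ± 0.741 and 7.44 ± 2.85) and Stfa3 (2.28 ± 0.475 and 5.01 ± 0.529) were lowest, and of these Stfa1 and Stfa3 overlapped in both sexes. The gene models that were counted may differ in length from the annotation used here, which would move these levels but not the comparison between sexes.

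In edgeR's quasi-likelihood test over the 19480 genes, 8 genes (0.0411%) passed an adjusted p of 0.05, 5 with higher and 3 with lower levels in males, and none of the 9 members, all of which passed the filter on low counts, was among them. At an unadjusted p under 0.05, 1908 genes (9.79%) passed, 980 of them higher in males, and all 9 members did. In DESeq2's Wald test 354 of 17762 genes with an adjusted p (1.99%) passed at 0.05, among them all 9 members. The male libraries were all above the female libraries in 1412 genes (7.25%), again with the 9 members. Since this same contrast had chosen the members, nothing is read from these counts.

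The other genes of both families were listed by family membership, with earlier results of these libraries known, and were tested. Of 13 further S100 genes, 7 passed the filter on low counts and were tested, and none differed at an adjusted p of 0.05 in edgeR's test, and none in DESeq2's. S100a10, which forms a complex with annexin A2 and is the most abundant of them, had 131, 138 and 135 CPM in the females and 118, 151 and 172 CPM in the males. The sexes overlapped, at a log2 fold change of 0.13 (SE 0.14, edgeR adjusted p = 0.817). S100a13, which takes part in the release of growth factors without a signal peptide, had a log2 fold change of 0.16 (edgeR adjusted p = 0.758), S100a1, known from muscle, had -0.12 (edgeR adjusted p = 0.905), and S100a16 had -0.82 (edgeR adjusted p = 0.572). Apart from S100a3 and S100a7a, 1 gene passed an unadjusted p of 0.05, S100b, named after its values were seen, with a log2 fold change of -0.74 (edgeR adjusted p = 0.382). S100a3 and S100a7a were near the floor, with 8 and 6 counts over the 3 female libraries and 57 and 52 over the 3 male libraries. They passed the filter on low counts only through the male libraries, where they are higher. Both are among the 7 tested genes, and their fitted fold changes are drawn in the plot of the 2 families. Nothing is read from their tests or fold changes.

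Of 22 further stefin and cystatin genes, 7 could be tested, and again none passed edgeR's adjusted test. Of the stefin genes that lie between the members on chromosome 16, those in the count table, Cstdc4, Cstdc5 and Cstdc6, had the highest log2 fold changes of the list. They were the 3 genes of it that passed an unadjusted p of 0.05 and the 3 that DESeq2 called, all higher in males. Cstdc4, from 36004483 to 36008484 on the plus strand, had 12.3, 15.3 and 13.9 CPM in the females and 25.8, 33.8 and 41.4 CPM in the males. Its sexes did not overlap, and its log2 fold change of 1.29 (SE 0.18) came to an adjusted p of 0.0547 in edgeR and of 1.73e-07 in DESeq2. Cstdc5, from 36179743 to 36191595 on the minus strand and the near copy of Stfa1, had a log2 fold change of 1.497 (SE 0.31), with an adjusted p of 0.113 in edgeR and of 4.62e-04 in DESeq2. Cstdc6, from 36142006 to 36154738 on the minus strand, had 0.353 CPM in females and 1.47 in males, a log2 fold change of 2.04 (SE 0.43), with adjusted p of 0.130 and 0.00445. Of the 40-base stretches of Cstdc6 75% occur in other genes, of those of Cstdc5 34%, mainly in Stfa1, and of those of Cstdc4 17.3%. Reads counted on these genes may thus come from elsewhere, and those of Cstdc5 from Stfa1.

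Outside the cluster, the abundant inhibitors of the same protein family gave other values. Cst3, or cystatin C, the secreted inhibitor, had a log2 fold change of -0.16 (SE 0.19, edgeR adjusted p = 0.829), and Cstb, or stefin B, the widely expressed cytosolic inhibitor, had 0.04 (SE 0.19, edgeR adjusted p = 0.965). Of the 8 genes in the stefin interval that were in the table and were not members, 4 could be tested. The fourth, the processed pseudogene Gm10913, had a log2 fold change of -0.26 (edgeR adjusted p = 0.715). Gm24437, Gm7260 and Gm25903 had 0 counts in every library.

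**Figure D3:**
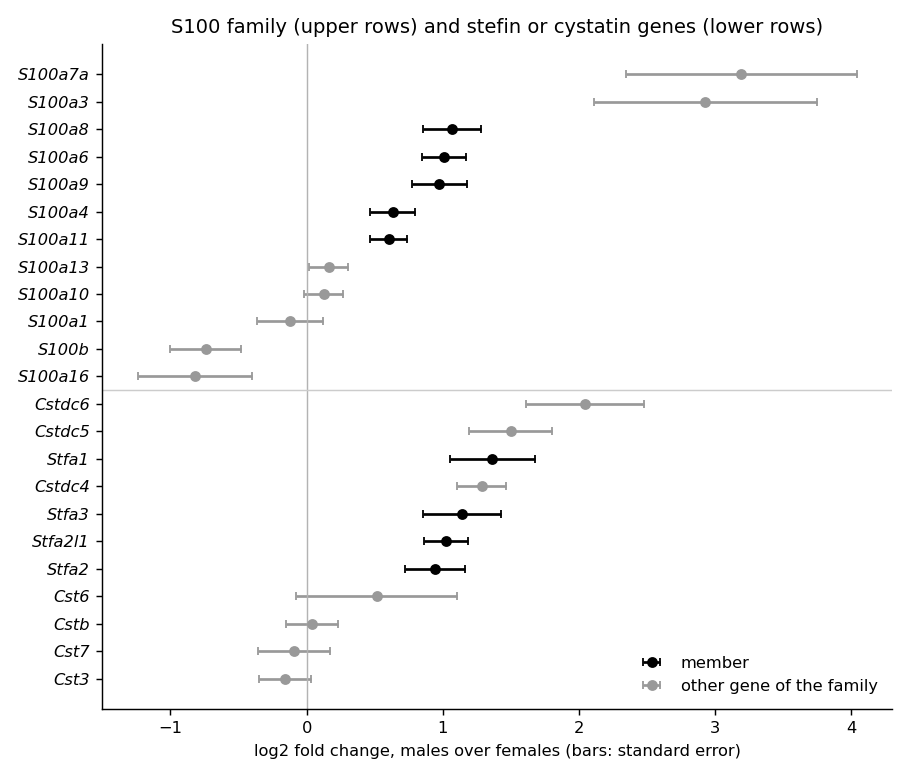
Log2 fold change, males over females, with its standard error, for the members (black) and the other tested genes (grey) of the S100 family, above the line, and of the stefin and cystatin genes, below it. The 4 stefin A members and Cstdc4, Cstdc5 and Cstdc6 lie together between 0.94 and 2.04, whereas S100a10, S100a13 and S100a1 lie near 0. S100a3 and S100a7a are drawn too, but they rest on few counts and passed the filter only through the male libraries, so nothing is read from their positions.

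The cysteine cathepsins, the proteases that stefins inhibit, went the other way in sign. All 10 on the list could be tested, and the median log2 fold change was -0.25, with 1 above 0. None passed edgeR's adjusted test or DESeq2's, and 4 were lower in males at an unadjusted p under 0.05. Ctsb, the most abundant, had a log2 fold change of -0.38 (edgeR adjusted p = 0.508), Ctss, which processes the invariant chain in antigen-presenting cells, had -0.21 and Ctsz had -0.19. Ctsk, the collagen-degrading protease of osteoclasts, had 31.6, 29.7 and 31.3 CPM in the females and 19.2, 16.4 and 26.0 CPM in the males. Its sexes did not overlap, and its log2 fold change was -0.59 (SE 0.17, edgeR adjusted p = 0.269). Ctsl had -0.55 (edgeR adjusted p = 0.552) and overlapped. None of the macrophage markers passed edgeR's adjusted test and DESeq2 called 1, Mrc1, but all 8 were lower in males at an unadjusted p under 0.05, with summed levels of 3109 to 4221 CPM in males and 4774 to 5000 in females, and their part in the cathepsin values was not tested.

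Receptors and signalling genes of calprotectin showed no shared direction, with a median log2 fold change of 0.01 over 12 genes, none called by edgeR, 2 higher and 3 lower in males at an unadjusted p under 0.05. Cd33, a sialic acid-binding receptor of myeloid cells that S100a9 can engage, had 42.0, 42.8 and 40.9 CPM in the females and 72.7, 83.4 and 63.7 CPM in the males. The groups were apart, and the log2 fold change of 0.81 (SE 0.12) came to an adjusted p of 0.0547 in edgeR and of 2.85e-05 in DESeq2, whose only call on this list it was. Cd36, a scavenger receptor and fatty acid carrier, was lower in every male library, from 28.0 to 42.1 CPM against 44.8 to 66.1, at a log2 fold change of -0.59 (SE 0.18, edgeR adjusted p = 0.320). Bsg, Nfkb1 and Myd88, the most abundant of the list, had log2 fold changes of -0.14, -0.14 and 0.26.

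Among 9 tested binding partners of the S100 proteins, 3 were higher and 1 lower in males at an unadjusted p under 0.05, and none passed the adjusted edgeR test. Anxa1, which S100a11 binds, had 481, 555 and 530 CPM in the females and 770, 988 and 839 CPM in the males. Its log2 fold change of 0.73 (SE 0.15) had an adjusted p of 0.108 in edgeR and of 1.33e-04 in DESeq2. Anxa2, the partner of S100a10, had a log2 fold change of 0.54 (SE 0.14), with adjusted p of 0.230 and 0.0227, and these annexins were DESeq2's 2 calls on the list. Myh9, the heavy chain that S100a4 binds, had -0.03. The 6 genes of the NADPH oxidase, the enzyme to which calprotectin brings arachidonic acid, had log2 fold changes from 0.01 to 0.49, with 4 at an unadjusted p under 0.05, all higher in males, and none past edgeR's adjusted test. DESeq2 called 1 of them, Ncf1, named after its values were seen, at a log2 fold change of 0.49 (adjusted p = 0.034 in DESeq2 and 0.259 in edgeR). The most abundant were Rac2 at 0.31, Cyba at 0.18 and Cybb at 0.01.

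Over the 6 libraries, the genes whose pattern was most like that of S100a8 and S100a9 summed were Wfdc21 (Pearson r = 0.9969), Trem3 (0.9946), Ccr1 (0.9934), Anxa1 (0.9912) and Cxcr2 (0.9903). For the stefin A members summed they were Vps26b (0.9945), Sqor (0.9924), Clec4d (0.9902), Lyz1 (0.9898) and Camp (0.9897). These values compare log2 CPM over 12250 genes and describe 6 points that share their libraries and fall into 2 sexes. Of the 10 genes, Wfdc21, Cxcr2 and Camp are also on the neutrophil marker lists, and the size of the change differs, with a log2 fold change of 1.03 in Wfdc21 and 0.29 in Vps26b.

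No neutrophil marker passed edgeR's adjusted test. Median log2 fold changes were 0.84 over the surface and maturation markers, 0.41 over the secondary and tertiary granule markers and 0.17 over the primary granule markers. These lists were not tested against each other and are no strict order of stages. The 10 surface and maturation markers were all higher in males at an unadjusted p under 0.05, with summed levels of 1450 to 1719 CPM in females and 2598 to 3358 in males. DESeq2 called 7 of them. Ly6g had a log2 fold change of 0.82 (SE 0.13, edgeR adjusted p = 0.0603), Retnlg 1.01 (SE 0.16, edgeR adjusted p = 0.0603) and Cxcr2, the receptor by which neutrophils leave the marrow, 0.85 (SE 0.13, edgeR adjusted p = 0.0547). Of the 10 secondary and tertiary granule markers, which appear midway, 6 were higher at an unadjusted p under 0.05 and DESeq2 called 4, with summed levels of 7712 to 9895 CPM in females and 12870 to 13550 in males. Camp had a log2 fold change of 0.87 (SE 0.17, edgeR adjusted p = 0.0932) and Ltf 0.32 (SE 0.17, edgeR adjusted p = 0.578). The 5 primary granule markers, made in promyelocytes, gave no gene past an unadjusted p of 0.05, with overlapping sums of 451 to 958 CPM in females and 376 to 759 in males.

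The members were also set against each list within every library, as the log2 ratio of their summed CPM to that of the markers. Against the surface and maturation markers, S100a8 and S100a9 lay at 2.96, 2.97 and 3.02 in the females and 2.90, 3.16 and 3.18 in the males. The sexes overlapped, with the male mean 0.10 higher. The other S100 members differed by -0.12 and the stefin A members by 0.17, also with overlap. Against the secondary and tertiary granule markers, S100a8 and S100a9 were 0.45 higher in males and the stefin A members 0.53 higher, both without overlap, and the other S100 members 0.24 higher with overlap. Against the primary granule markers the differences were 1.10, 1.17 and 0.88, in each case without overlap. The numerators are the values by which the members were chosen, so against a list whose sexes overlap, such as the primary granule markers, these ratios restate that choice, and no stage is told apart by them.

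**Figure D4:**
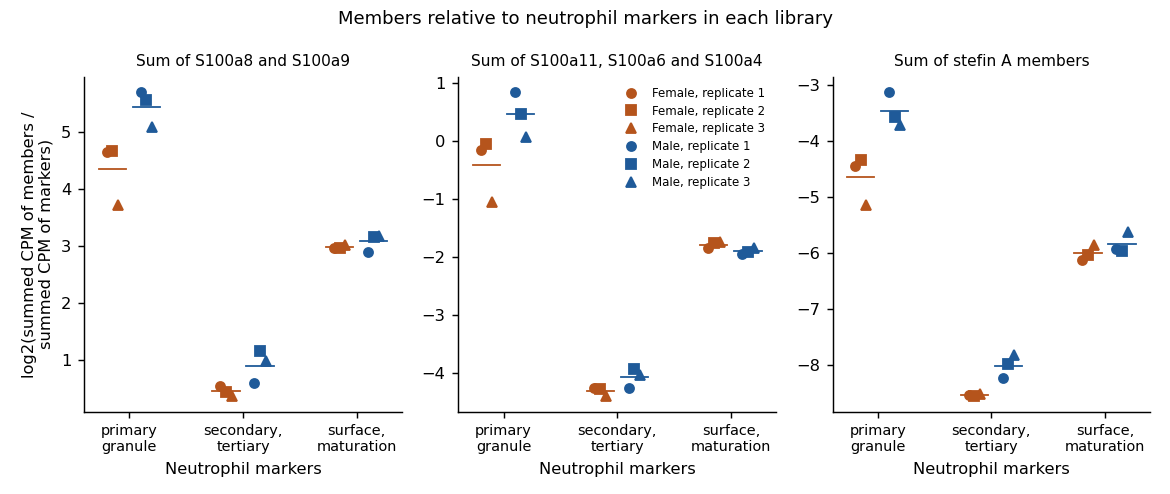
Log2 ratio of the summed CPM of S100a8 and S100a9 (left), of S100a11, S100a6 and S100a4 (middle) and of the stefin A members (right) to the summed CPM of 3 neutrophil marker lists, for each female (orange) and male (blue) library, with a line at the mean of each sex. The sexes overlap over the surface and maturation markers and lie apart over the primary granule markers.

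Markers of other cell types gave no call in edgeR's adjusted test. Of the 20 endothelial markers 14 were lower in males at an unadjusted p under 0.05, with summed levels of 460 to 649 CPM in females and 285 to 419 in males, and DESeq2 called 8 of them. Cdh5 had a log2 fold change of -1.17 (SE 0.36, edgeR adjusted p = 0.336) and Emcn -0.81 (SE 0.33, edgeR adjusted p = 0.450). Of the 10 erythroid markers, 5 were higher and 1 lower in males at an unadjusted p under 0.05, and none was called by DESeq2. Their sum, 12170 to 17480 CPM in females and 18480 to 27160 in males, was mostly globin transcripts, of which Hbb-bs had a log2 fold change of 0.55 and Hba-a1 of 0.51, while among markers other than globins, named after their values were seen, Klf1 had 0.02, Car1 -0.25 and Epor -0.46. Of the 7 monocyte markers 1 was higher and 3 were lower in males at an unadjusted p under 0.05, with summed levels of 919 to 1063 CPM in females and 911 to 970 in males, and DESeq2 called Csf1r, at a log2 fold change of -0.52. All 10 stromal markers had log2 fold changes below 0, 4 of them at an unadjusted p under 0.05, and DESeq2 called Adipoq, at -1.69, although their sums, mostly Cxcl12, overlapped at 1494 to 3102 CPM in females and 1243 to 2400 in males. Of the 8 B cell markers 1 was higher in males at an unadjusted p under 0.05, with overlapping sums of 2883 to 3279 CPM in females and 2911 to 3354 in males. The part of neutrophil and endothelial RNA in the values of the members was not tested.

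**Figure D5:**
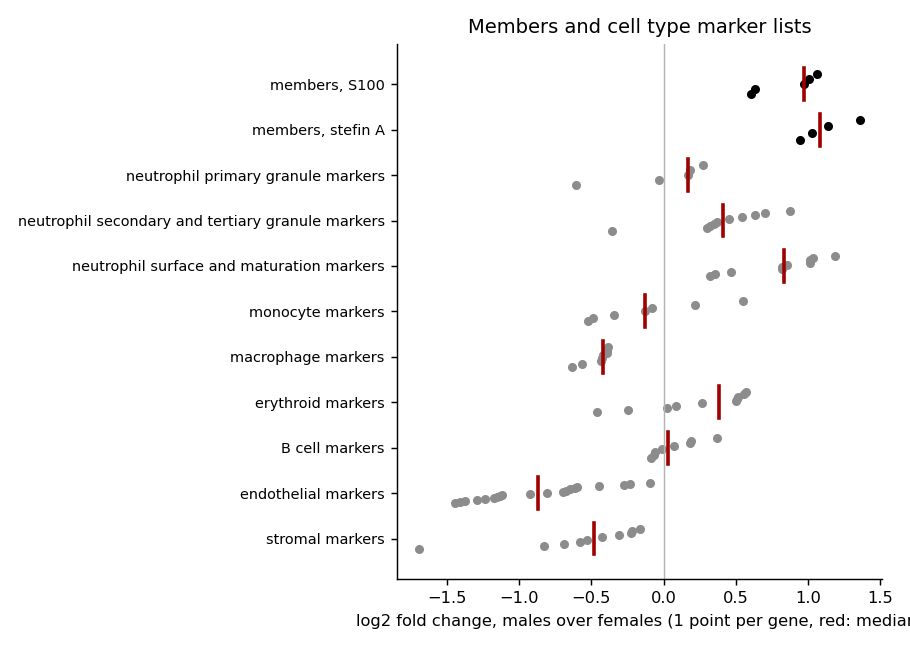
Log2 fold change, males over females, of every tested gene of the member groups (black) and of the cell type marker lists (grey), 1 point per gene, with a red line at the median of each list. The medians of the member groups are 0.97 and 1.08. Among the marker lists the highest is that of the neutrophil surface and maturation markers, at 0.84, and the lowest that of the endothelial markers, at -0.87. The members were chosen by this difference, so nothing is read from their nearness to a list.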

How the data were processed

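The authors deposited whole-number read counts per gene and library, unnormalized and not pooled, of 6 libraries. Per the study's methods, reads of total RNA were aligned to GRCm39 with STAR and counted with featureCounts, the reads being 100 bases long. The submitters' processing notes in the labels instead name TopHat2 2.0.11, featureCounts and mm9/NCBIM37, with polyA RNA, a directional kit and reads of 40 bases. Annotation release and strand setting are not given in the sources used here, so overlapping genes could share reads. GENCODE M39 (GRCm39) matched 31073 of 37991 identifiers and gave symbols, positions and exon lengths.

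Counts were fitted with edgeR 4.0.16 (R 4.3.3): TMM normalization, edgeR's own low-count filter with sex as the group, and a robust quasi-likelihood test of males over females with sex alone, Benjamini-Hochberg adjustment over 19480 genes. DESeq2 1.42.0 (Wald test) was an alternative and also gave the variance-stabilised values for principal components. Levels are TMM-normalized CPM, summarised as mean ± SD. Likeness is Pearson's r of log2(CPM + 1) among genes with a mean of at least 5 CPM. Promoters came from RefSeq (GRCm38.p6), and all 9 members matched. Coding sequences of the annotated canonical transcripts were aligned globally with Biopython 1.88, and protein identity was replaced by coding identity.

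The members and lists were chosen with earlier results of these data known. Named were all members; of each related list, the 3 most abundant genes and any called by edgeR with or without the replicate block; of marker lists, the most abundant and defining markers; and the 5 genes most like each member sum. Genes outside this rule are S100b, S100a3, S100a7a, Ncf1, Klf1, Car1, Epor, Mrc1 and the genes of the stefin interval.

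Alternatives were DESeq2 size factors, total counts alone, no filter, at least 10 counts in every library, genes over 1% of a library left out, DESeq2, the replicate block, other marker lists, and each library left out.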

Additional observations from a re-analysis of the deposited data

How the results depend on the processing

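Over 115 values of the 9 member log2 fold changes under these alternatives, 0 changed sign. S100a8 lay between 0.90 and 1.24, and Stfa1, 1.36 with an SE of 0.31, lay between 1.01, without male replicate 3, and 1.56, without male replicate 1. The number of related genes called, 0 of 45 (the NADPH oxidase genes not counted) in edgeR's test with 19 at an unadjusted p under 0.05 (S100a3 and S100a7a, which the filter kept through the males alone, among them), became 1 (Cstdc4) with total counts alone, 4 (Anxa1, Cd33, Cstdc4 and Cstdc5) with no filter and 6 (those with Anxa2 and Cstdc6) in DESeq2's Wald test. With each library left out in turn it lay between 0 and 3: 1 (Cstdc4) without male replicate 1, 3 (Cd33, Cstdc4 and Ctsk) without male replicate 3, and 0 otherwise. The cause was not tested. Genes called among all genes tested numbered 8, and 14 with total counts alone, 98 with no filter, 354 in DESeq2's test and between 5 and 96 with each library left out, 96 without male replicate 3. The difference in the members' share of counts, 1.276 percentage points, was 0.0393 without genes over 1% of a library, which leaves out S100a8 and S100a9. The male minus female log2 ratio to secondary and tertiary granule markers was 0.454 for S100a8 and S100a9, and 1.098 to primary granule and 0.097 to surface and maturation markers; for the other S100 members it was 0.240, 0.884 and, in the other direction, -0.118; for the stefin A members 0.526, 1.171 and 0.169. Other scalings moved the median of all genes by 0.013 at most.

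Same-numbered libraries of the sexes correlated at 0.269, 0.0628 and 0.382 in their deviations from the group means, and 5 of the 6 correlated best with their own number, which hints at a link but does not pair the libraries. Under the replicate block, 428 of the 19480 genes, 8 of the 9 members and 10 of the related genes were called, and of the 88 cell type markers 25 in place of 0: 12 endothelial, 2 stromal and 1 macrophage marker lower in males, and 9 neutrophil markers and 1 monocyte marker higher. Nothing is read from the calls on the members, since this contrast had chosen them. With 3 libraries a sex, depth is not the limit for the S100 members, whereas S100a3, S100a7a and Cstdc6 rest on few counts.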
